A study of Mus musculus with 16 samples.

Results

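The MYC and MAX network was followed in mouse splenic B cells over genotype and time. The network comprised 8 genes, Myc, Mycn, Max, Mxd1, Mxd3, Mxd4, Mnt and Mga, of 34741 genes on the array. Its members were found as the non-control spots that carry these gene names, which gave 10 of 55681 distinct probes and 11 spots on each array. The mice, all AM14, make B cells with an IgG-binding antigen receptor. They were WT, Tlr7-/-, Tlr9-/- or Tlr7/9-/- (the double knockout), and thus lacked no receptor, the endosomal RNA sensor TLR7, the endosomal DNA sensor TLR9, or both. RNA came from unstimulated cells (0 h) and from cells held for 6, 24 or 42 h with PL2-3, a monoclonal antibody to chromatin that such B cells take up through that receptor. Each of the 16 combinations was measured on 1 array of 2 colours, with the sample in Cy5 and a pool of unstimulated B cell RNA of all 4 genotypes in Cy3. Every level below is a log2 ratio to that pool, so that 0 is the level of the pool. Age, sex and number of the mice, and how the cells were purified, are not given in the labels used here.

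MYC is a transcription factor of growing cells that binds DNA only as a pair with MAX, at a short palindrome called the E-box, and raises genes of ribosome production, metabolism and division. MXD1, MXD3, MXD4, MNT and MGA also pair with MAX and occupy the same sites, where they recruit repressor complexes, so the output of the network depends on which partners MAX finds. Resting B cells hold little MYC, and signals through the antigen receptor or Toll-like receptors induce it early.

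There were no replicate arrays. The genotypes that keep at least 1 receptor (WT, Tlr7 knockout and Tlr9 knockout) stood in for replicates of a time, and the times stood in for replicates of a genotype, so that p-values measure the disagreement among genotypes or times and not the spread between mice. WT and Tlr7 knockout arrays shared 1 slide and Tlr9 and double knockout arrays the other, so TLR9 and slide cannot be told apart. Cells kept in culture without PL2-3 were not on these arrays, so the antibody and the culture itself cannot be told apart either. Between 37.4% and 62.7% of spots per array were well above background in Cy5 and 0 were saturated. The lowest share was that of the Tlr9 knockout array at 0 h, which also had the largest share of outlier spots (0.927%). It is the only 0 h array of that genotype. Of 3 Tlr7 probes 2 averaged -0.13 and -0.28 in genotypes lacking Tlr7 against 1.12 and 1.29 in the others, and the third was above background on 4 arrays only, whereas the Tlr9 probe averaged -0.40 in both kinds of cell and did not register that knockout. All 7 B cell markers were well above background on all arrays. Their median fell from between -0.08 and 0.21 at 0 h to between -2.50 and -2.17 at 6 h. Markers of other cells were also measured and were lower after 0 h. Of the B cell markers 6 of 7 fell at 6 h (limma, adjusted p under 0.05), against 23.8% of all genes tested. So did 7 of 8 myeloid, 5 of 6 T cell, 4 of 4 NK cell and 4 of 4 tested erythroid markers. In bulk RNA, fewer cells of a type and less RNA per cell cannot be told apart. The part of these shifts in the results below was not tested.

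The sequences that read or concern the network were few. The Myc probe lies at chr15:61821417-61821476 (mm9, plus strand) and is 60 bases long, of which the first 47 run to the stop codon of Myc, in capitals. It therefore reads the end of the coding sequence of Myc, and it was printed as 2 spots whose log2 ratios differed by a median of 0.05 and at most 0.22 over the 16 arrays. On the Tlr9 knockout array at 0 h 1 of the 2 spots had a raised local background (127.5 in Cy5 and 195 in Cy3). That spot stood at -0.25 and the other at -0.30.
Myc: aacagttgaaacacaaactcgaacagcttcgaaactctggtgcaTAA
The E-box CACGTG, which reads the same on both strands, was then sought in the promoter windows of the RefSeq table (GRCm38.p6, 250 bases before to 50 after a start). Of the 8 members 7 had a window, Myc being the exception, and 3 of these 7 held the letters. Of all 32851 windows 7.15% held them. A stretch of 60 bases around each match is shown, with the E-box in capitals, because these letters are the known site of the network's own proteins beside 3 of its own genes. The stretches lie at chr12:76962219-76962278 (minus strand, E-box from 3 bases before the start) for Max, chr11:74830774-74830833 (plus strand, from 123 bases before) for Mnt and chr5:34187897-34187956 (minus strand, from 219 bases before) for Mxd4.
Max: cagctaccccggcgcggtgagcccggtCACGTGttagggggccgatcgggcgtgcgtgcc
Mnt: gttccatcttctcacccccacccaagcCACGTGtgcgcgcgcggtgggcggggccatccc
Mxd4: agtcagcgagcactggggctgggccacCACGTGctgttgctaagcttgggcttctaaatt
A match is a description of these letters and no evidence of binding. The 3 genes followed different courses, as given below: Mnt was higher and Mxd4 lower at 6 h, and Max passed no test there.

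The first comparison asked how each member changed from 0 h over the 3 genotypes that keep a receptor. Of the 8 members 7 were bright enough to be tested, all but Mycn. At 6 h 5 of the 7 changed, against 46.7% of all 22472 genes tested. Myc, Mnt and Mga rose (22.9% of all genes did) and Mxd1 and Mxd4 fell (23.8% of all genes did). At 24 h 4 of 7 had changed (48.6% of all genes), 1 higher (22.7% of all genes) and 3 lower (25.9%). At 42 h it was again 4 (37.8% of all genes), 1 higher (17.3%) and 3 lower (20.6%). The median over the 7 tested members was -0.37, -0.08 and -0.35 at the 3 times, against -0.00232, 0.00656 and -0.00283 for all genes. The shares of members called lie near or somewhat above those of all genes, so the count by itself does not set the network apart, and its content lies in the courses of the members.

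**Figure D1:**
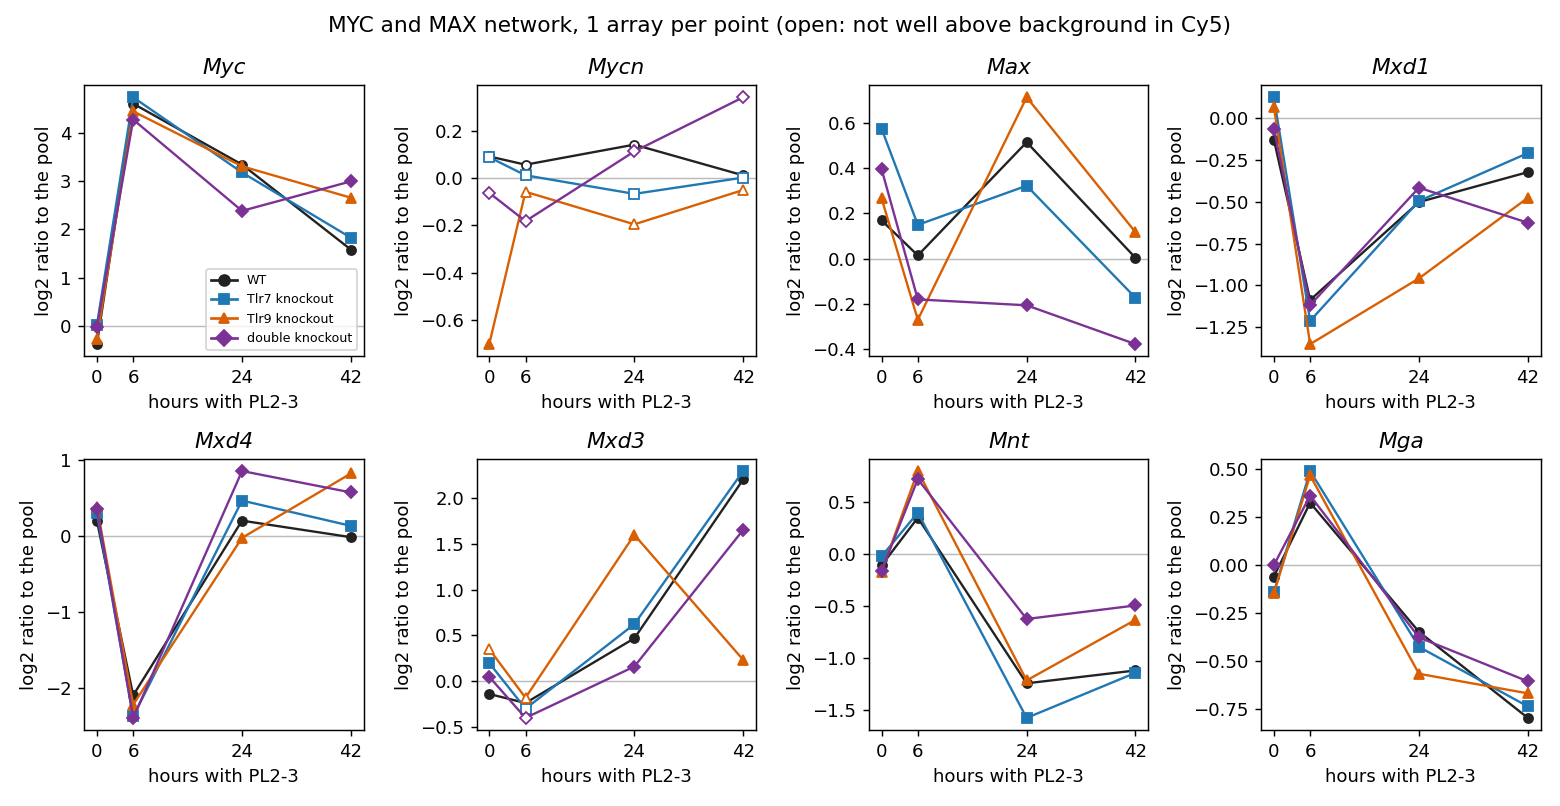
Log2 ratio to the pool (vertical axes, scaled per gene) against hours with PL2-3 for the 8 members, 1 point per array and 1 line per genotype, with open symbols where Cy5 was not well above background. Myc stood between 4.28 and 4.74 on the 4 arrays at 6 h, while Mxd4 lay between -2.39 and -2.10.

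Myc, the activator of the network, was low at 0 h and highest at 6 h in every genotype. At 0 h the WT array stood at -0.38, the Tlr7 knockout array at 0.02, the Tlr9 knockout array at -0.27 and the double knockout array at -0.03. At 6 h the same genotypes stood at 4.61, 4.74, 4.45 and 4.28. The 2 times did not overlap, and the 4 genotypes lay within 0.46 of each other at 6 h. At 24 h Myc stood at 3.35, 3.18, 3.31 and 2.38, with the double knockout lowest. At 42 h it stood at 1.58, 1.83, 2.66 and 3.00. By then the arrays of the second slide, Tlr9 and double knockout, were both above those of the first slide. Over the 3 genotypes that keep a receptor, Myc rose by 4.81 ± 0.23 at 6 h (log2, SE, n = 3 genotypes, limma adjusted p = 5.26e-07), a 28.1-fold difference. It remained 3.49 ± 0.23 above 0 h at 24 h (adjusted p = 3.86e-06) and 2.23 ± 0.23 above it at 42 h (adjusted p = 8.74e-05).

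The decline of Myc after 6 h was tested step by step. Of 7 members 6 changed between 6 and 24 h, against 32.1% of all genes, 3 of them higher (14.1% of all genes) and 3 lower (17.9%), and Myc fell by 1.32 (SE 0.23, limma adjusted p = 0.00265). Without the Tlr7 knockout arrays that fall was -1.20 with an adjusted p of 0.0563. Between 24 and 42 h Myc fell by a further 1.26 (SE 0.23, adjusted p = 0.0217), and it was the only member of 7 to change in that step, against 5.71% of all genes (3.6% for lower calls). The last step was less secure: it was -1.002 without the WT arrays (adjusted p = 0.452), -1.21 without the Tlr7 knockout arrays (adjusted p = 0.255) and -0.79 with the double knockout arrays added (adjusted p = 0.271). Agilent's processed signals gave -1.28 (adjusted p = 0.117), and centring each array on its median gave -1.97 (adjusted p = 0.00722). That centring moved the median of all genes by -0.22 in this step and took the share of called genes that were higher from 37.0% to 0.925%.

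Mycn, a relative of Myc used mainly in early development and the nervous system, was read by a probe at chr12:12943193-12943252 (mm9, minus strand). It was not well above background in Cy5 on 15 of 16 arrays, where its spot gave between 41.3 and 63.9 intensity units over a local background of 39.0 to 46.0. On the remaining array, the Tlr9 knockout at 0 h, the spot gave 257 units in Cy5 and 449 in Cy3, and the local background was itself raised there, to 114.5 (Cy5, median of pixels) and 187 (Cy3). No fold is given for Mycn.

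Max, the shared partner, moved little. It was read at chr12:78038272-78038331 (mm9, minus strand). It stood at 0.17, 0.58, 0.27 and 0.40 at 0 h (in WT, then the Tlr7, the Tlr9 and the double knockout, the order used from here on) and at 0.01, 0.15, -0.27 and -0.18 at 6 h. At 24 h it stood at 0.52, 0.32, 0.71 and -0.21, and at 42 h at 0.0034, -0.17, 0.12 and -0.38. Levels at 0 h and 24 h overlapped, and the double knockout was the lowest array at 24 and 42 h. The difference from 0 h was -0.37 ± 0.16 at 6 h (adjusted p = 0.0929), 0.18 ± 0.16 at 24 h (adjusted p = 0.404) and -0.35 ± 0.16 at 42 h (adjusted p = 0.121). The 95% intervals ran from -0.74 to -0.0048, from -0.19 to 0.55 and from -0.72 to 0.01. The 6 h difference turned to 0.39 with median centring (adjusted p = 0.11) and was -0.42 with all 4 genotypes (adjusted p = 0.0445). At 24 h median centring gave 1.12 (adjusted p = 0.000504), and at 42 h the difference was -0.46 both without the Tlr9 knockout arrays (adjusted p = 0.0387) and with all 4 genotypes (adjusted p = 0.0366). From 6 to 24 h Max rose by 0.55 ± 0.16 (adjusted p = 0.029), a call that was lost without the WT arrays (0.58, adjusted p = 0.162), without the Tlr9 knockout arrays (0.34, adjusted p = 0.118) and with all 4 genotypes (0.41, adjusted p = 0.0693). From 24 to 42 h the difference was -0.53 ± 0.16 (adjusted p = 0.0894), and it passed without the Tlr9 knockout arrays (-0.50, adjusted p = 0.0453) and with median centring (-1.18, adjusted p = 0.00722).

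**Figure D2:**
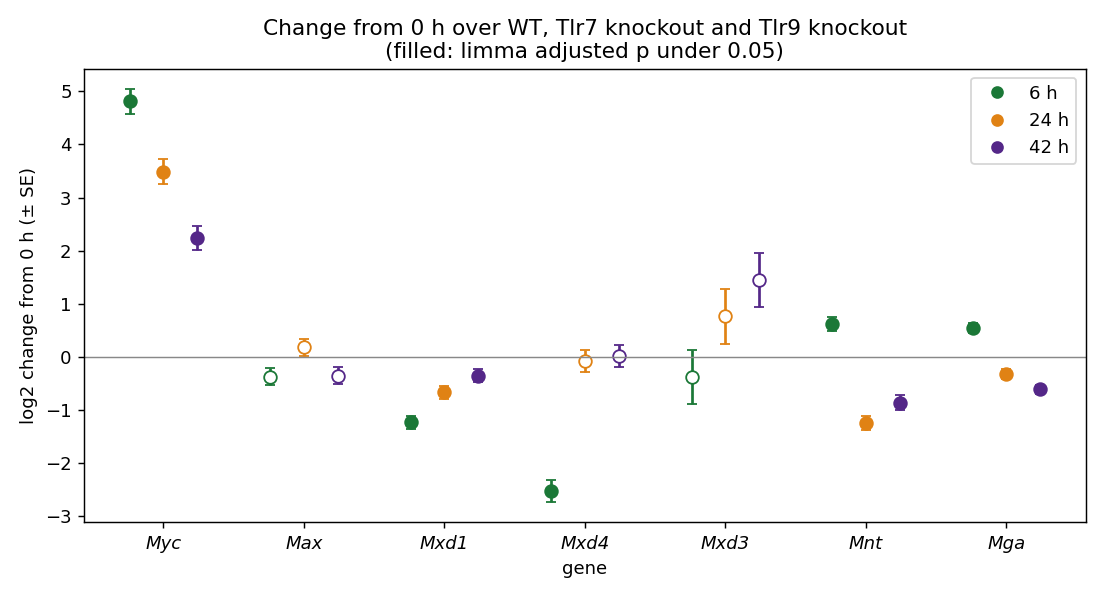
Log2 difference from 0 h (vertical axis, ± SE) of the 7 tested members at 6, 24 and 42 h over WT, Tlr7 knockout and Tlr9 knockout, filled where the limma adjusted p was under 0.05. Myc was higher at each time, at 4.81, 3.49 and 2.23, and Mxd4 was lower at 6 h only in this test (-2.52); with median centring the signs of Max at 6 h and of Mga and Mxd4 at 24 h turned, and with the processed signals that of Mxd4 at 42 h.

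The MXD repressors gave 3 different courses. Mxd1, a repressor known for its induction as cells stop dividing and mature, was read by 2 probes, the brighter at chr6:86597190-86597249 (mm9, minus strand). It stood at -0.13, 0.12, 0.07 and -0.06 at 0 h and at -1.09, -1.21, -1.35 and -1.12 at 6 h. All arrays at 6 h were below all arrays at 0 h. At 24 h it stood at -0.50, -0.50, -0.96 and -0.42 and at 42 h at -0.32, -0.21, -0.48 and -0.63, still below 0 h on every array. Mxd1 fell by 1.24 at 6 h (SE 0.12, adjusted p = 2.64e-05) and differed from 0 h by -0.67 ± 0.12 at 24 h (adjusted p = 0.00131). The second probe, at chr6:86599053-86599112, stood at -0.92, -1.09, -1.22 and -1.24 at 6 h. From 6 to 24 h Mxd1 rose by 0.56 ± 0.12 (adjusted p = 0.007).

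The later differences of Mxd1 were less secure. At 24 h the difference was -0.31 with median centring (adjusted p = 0.24) and -1.03 with Agilent's processed signals (adjusted p = 0.00763). At 42 h the difference of -0.36 ± 0.12 passed the threshold (adjusted p = 0.0431), but not without WT (-0.44, adjusted p = 0.0801), without the Tlr7 knockout (-0.37, adjusted p = 0.211) or without the Tlr9 knockout (-0.26, adjusted p = 0.0887). The second probe gave -0.27 there (adjusted p = 0.131) and the processed signals -0.64 (adjusted p = 0.0653). The rise from 6 to 24 h was 0.55 without WT (adjusted p = 0.0604), 0.49 without the Tlr7 knockout (adjusted p = 0.128) and 0.73 with the processed signals (adjusted p = 0.0545).

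Mxd4, a repressor of quiescent and differentiated cells, had the deepest fall of the network and then returned. Its brighter probe, at chr5:34519323-34519382 (mm9, minus strand), stood at 0.20, 0.30, 0.38 and 0.36 at 0 h and at -2.10, -2.37, -2.22 and -2.39 at 6 h. All arrays of 6 h lay below all arrays of 0 h, and the genotypes lay close together at both times. At 24 h the gene stood at 0.20, 0.46, -0.03 and 0.85, and at 42 h at -0.02, 0.13, 0.82 and 0.57, ranges that overlap those of 0 h. Mxd4 fell by 2.52 at 6 h (SE 0.21, adjusted p = 8.88e-06), which is 5.75-fold, and rose by 2.44 ± 0.21 from 6 to 24 h (adjusted p = 0.000108). The difference from 0 h was -0.08 ± 0.21 at 24 h (95% interval -0.55 to 0.39, adjusted p = 0.782) and 0.02 ± 0.21 at 42 h (95% interval -0.45 to 0.48, adjusted p = 0.957; -0.068 with Agilent's processed signals).

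The 2 probes of Mxd4 disagreed on how complete the return was, although they overlap on the genome. The dimmer one, at chr5:34519276-34519335, stood at 0.06, 0.41, 0.35 and 0.19 at 0 h, at -1.50, -1.86, -1.81 and -2.00 at 6 h, at -0.67, -0.60, -0.69 and 0.05 at 24 h, and at -0.27, -0.45, 0.24 and -0.36 at 42 h. At 6 h it was well above background in Cy5 on 1 of 4 arrays, and on all 4 at each other time, so its depth at 6 h is only bounded. By this probe Mxd4 was still below 0 h at 24 h in the genotypes with a receptor (-0.93, adjusted p = 0.00188), and the difference at 42 h was -0.44 (adjusted p = 0.0832). By the brighter probe the difference at 24 h turned positive with median centring (0.50, adjusted p = 0.162) and without the Tlr9 knockout arrays (0.08, adjusted p = 0.641).

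Mxd3, the MXD protein that is expressed in dividing cells rather than resting ones, passed the test at no time over the 3 genotypes with a receptor, and the Tlr9 knockout arrays stood apart from the others at 24 and 42 h. It was dim, and its probe at chr13:55427000-55427059 (mm9, minus strand) was well above background in Cy5 on 12 of 16 arrays. It stood at -0.14, 0.20, 0.35 and 0.05 at 0 h, where the Tlr9 knockout spot again had a raised local background (119 in Cy5 and 175 in Cy3), and at -0.24, -0.30, -0.18 and -0.40 at 6 h. At 24 h it stood at 0.47, 0.62, 1.60 and 0.16, with the Tlr9 knockout highest. At 42 h it stood at 2.20, 2.30, 0.23 and 1.65, with the Tlr9 knockout lowest. The difference from 0 h was -0.38 ± 0.51 at 6 h (adjusted p = 0.6), 0.76 ± 0.51 at 24 h (adjusted p = 0.257) and 1.44 ± 0.51 at 42 h (adjusted p = 0.0516). Without the Tlr9 knockout arrays Mxd3 was 0.52 above 0 h at 24 h (adjusted p = 0.00503) and 2.22 above it at 42 h (adjusted p = 2.96e-06). At 42 h it also passed with all 4 genotypes (1.48, adjusted p = 0.00998), with median centring (1.77, adjusted p = 0.0327) and with the stricter filter on dim probes (1.44, adjusted p = 0.0459).

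Mnt and Mga, the large MAX partners present in most cells, rose slightly at 6 h and then lay below the unstimulated level. Mnt (chr11:74658915-74658974, mm9, plus strand) stood at -0.11, -0.02, -0.17 and -0.16 at 0 h, at 0.35, 0.40, 0.80 and 0.72 at 6 h, at -1.25, -1.58, -1.22 and -0.63 at 24 h, and at -1.12, -1.15, -0.63 and -0.49 at 42 h. The arrays of 6 h lay above and those of 24 and 42 h below all arrays of 0 h. On the WT array at 42 h the Mnt spot was dim in both colours, with 1037 intensity units in Cy5 and 1193 in Cy3. On every other array it gave at least 5804 in Cy5 and 3804 in Cy3. The part of this in the WT value at 42 h was not tested. Mnt rose by 0.62 ± 0.14 at 6 h (adjusted p = 0.00512), fell by 1.87 from 6 to 24 h (SE 0.14, adjusted p = 7.21e-05), and differed from 0 h by -1.25 ± 0.14 at 24 h (adjusted p = 8.01e-05) and by -0.87 ± 0.14 at 42 h (adjusted p = 0.00114). The size depended on the scaling of the arrays. With median centring the 3 differences were 1.49, -0.31 (adjusted p = 0.299) and -0.60 (adjusted p = 0.0694).

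Mga (chr2:119792479-119792538, mm9, plus strand), which besides its MAX-binding part carries a T-box and belongs to a Polycomb complex, stood at -0.06, -0.14, -0.15 and 0.00044 at 0 h, at 0.33, 0.49, 0.47 and 0.36 at 6 h, at -0.35, -0.42, -0.56 and -0.38 at 24 h, and at -0.79, -0.73, -0.67 and -0.60 at 42 h. The times did not overlap, and it was the member on which the genotypes differed least. Mga rose by 0.54 ± 0.09 at 6 h (adjusted p = 0.00101), fell by 0.87 from 6 to 24 h (SE 0.09, adjusted p = 0.000295), and differed from 0 h by -0.62 ± 0.09 at 42 h (adjusted p = 0.000779). At 24 h it differed by -0.33 ± 0.09 (adjusted p = 0.0157), but by -0.35 without WT (adjusted p = 0.072), by -0.35 without the Tlr7 knockout (adjusted p = 0.11) and by 0.16 in the opposite direction with median centring (adjusted p = 0.537). With median centring the 6 h difference was 1.16. That centring moved the median of all genes by 0.22 at 6 and 24 h and by 0.08 at 42 h, so relative to it the values were 0.93 at 6 h and -0.07 at 24 h. It also took the share of called genes that were higher from 49.0% to 75.7% at 6 h, from 46.6% to 76.9% at 24 h and from 45.6% to 58.5% at 42 h.

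The next comparison asked whether the members' levels after 0 h depended on TLR7 and TLR9, with the times as replicates. No member of 7 passed the threshold (limma) in the double knockout against the other 3 genotypes (0% of all 22967 genes did), nor in the Tlr7 knockout against WT (0.00435%) or the double against the Tlr9 knockout (0.0435%), both within a slide. None passed between slides either, in the Tlr9 knockout against WT (0.0522%) or the double against the Tlr7 knockout (1.26%), nor in the response of the double knockout minus that of the others (0.0383%). At an unadjusted p under 0.05 the counts were 2 of 7 for the double knockout against the others (19.1% of all genes), 0 for the Tlr7 knockout against WT (1.85%), 1 for the double against the Tlr9 knockout (5.92%), 2 for the Tlr9 knockout against WT (9.27%), 1 for the double against the Tlr7 knockout (19.8%) and 1 for the difference in response (8.17%). These shares are too close to those of all genes to set the network apart.

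The values behind these counts were largest for Max and Mnt. The double knockout minus the other 3 genotypes was -0.41 ± 0.13 for Max (adjusted p = 0.15, and 0.139 to 0.744 over its alternatives), and by time -0.14 at 6 h, -0.72 at 24 h and -0.36 at 42 h. For Mnt it was 0.47 ± 0.15 (adjusted p = 0.154, and 0.141 to 0.862 over its alternatives), and by time 0.21, 0.72 and 0.47. The double knockout was thus on the same side of the mean at each time for both genes, the low side for Max and the high side for Mnt, although with median centring the value was -0.83 for Max and 0.08 for Mnt. Within a slide, against the Tlr9 knockout, the difference was -0.44 ± 0.17 for Max (adjusted p = 0.818) and 0.22 ± 0.13 for Mnt (adjusted p = 0.829). Mnt was 0.64 ± 0.13 higher in the double than in the Tlr7 knockout, which lay on the other slide (adjusted p = 0.0588), and 0.03 with median centring. The Tlr9 knockout minus WT was 0.32 ± 0.13 for Mnt (limma adjusted p = 0.517, and -0.19 with median centring). For Mxd1 it was -0.29 ± 0.13 (limma adjusted p = 0.536, and -0.68 with median centring, adjusted p = 0.0725). That centring moved the median of all genes as well. For the double knockout minus the other 3 genotypes the move was -0.14, and relative to it Max was -0.69 and Mnt 0.22. Against the Tlr7 knockout it was -0.21, and Mnt was 0.24 relative to it. For the Tlr9 knockout minus WT it was -0.27, and relative to it Mnt was 0.08 and Mxd1 -0.40.

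Myc showed no genotype difference when averaged over the times, and the double knockout changed sides between 24 and 42 h. Its difference from the other 3 genotypes was -0.32 at 6 h, -0.89 at 24 h and 0.97 at 42 h, and the average was -0.08 ± 0.29 (95% interval -0.73 to 0.57, adjusted p = 0.912). For the Tlr7 knockout against WT the average was 0.07 ± 0.38 (95% interval -0.80 to 0.94), and for the double against the Tlr9 knockout -0.25 ± 0.38 (95% interval -1.12 to 0.62). These intervals are wide beside the averages.

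Since averages over time hide such crossings, the steps from 6 to 24 h and from 24 to 42 h were compared between genotypes, a choice made after the values were seen. From 24 to 42 h the change in Myc was -1.76 for WT, -1.35 for the Tlr7 knockout, -0.65 for the Tlr9 knockout and 0.61 for the double knockout. It was lower at 42 h in the 3 genotypes with a receptor and higher in the double knockout. The double knockout minus the others was 1.87 ± 0.46 (95% interval 0.83 to 2.90, adjusted p = 0.18), which did not pass, and 0 of 7 members did, against 0.00426% of all 23491 genes and 1 of 7 at an unadjusted p under 0.05 (11% of all genes). Without the Tlr9 knockout arrays the value was 2.17 (adjusted p = 0.00365), and over the other alternatives the adjusted p reached 0.779. On the single double knockout array at 24 h the B cell markers had a median of -1.48, against -2.43, -2.38 and -2.18 in the others; the part of that in the low Myc value was not tested.

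**Figure D3:**
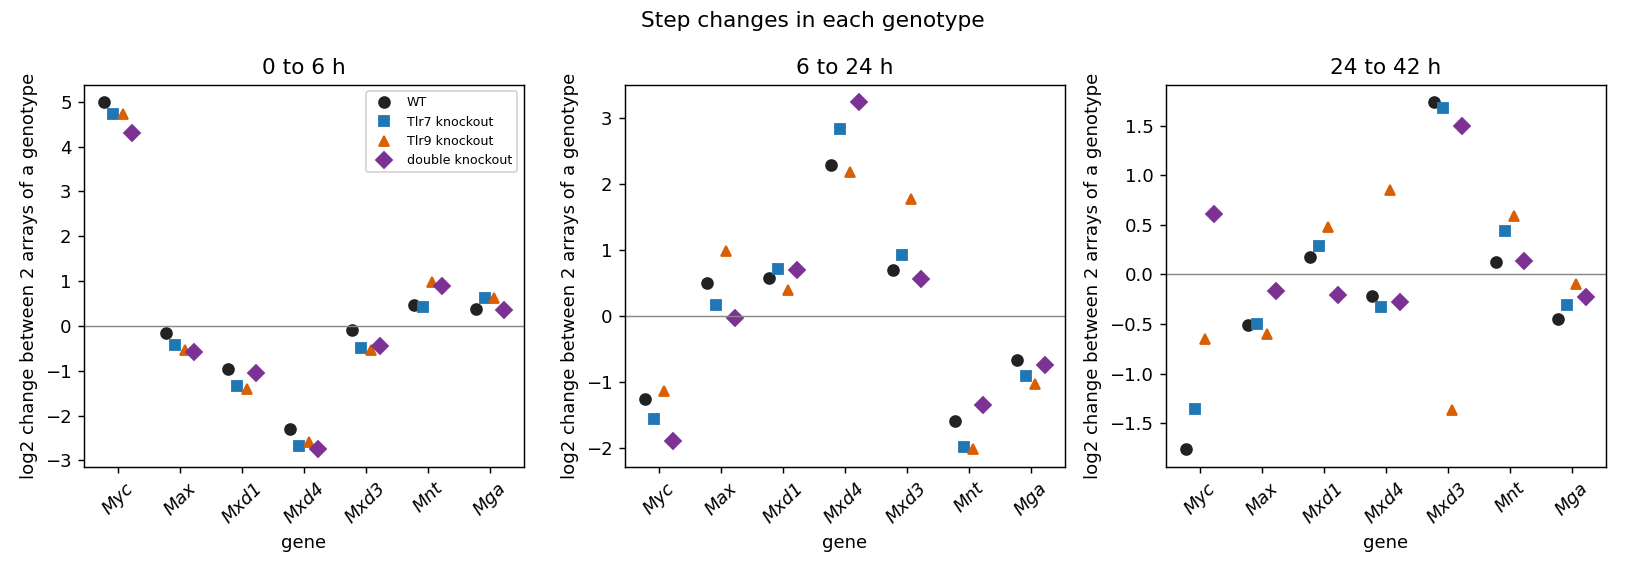
Log2 change between consecutive times (vertical axes, scaled per step) for the 7 tested members, 1 symbol per genotype and each from 2 arrays. From 0 to 6 h each member moved in the same direction in all genotypes. Mnt rose then by 0.46 and 0.42 in WT and the Tlr7 knockout, and by 0.97 and 0.88 in the Tlr9 and double knockout, on the other slide. From 24 to 42 h Myc changed by 0.61 in the double knockout against -1.76 to -0.65 elsewhere. Mxd3 changed by -1.37 in the Tlr9 knockout against 1.49 to 1.74 elsewhere.

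In the step from 24 to 42 h the Tlr9 knockout differed from the others for Mxd3. The change in Mxd3 was 1.74 for WT, 1.67 for the Tlr7 knockout and 1.49 for the double knockout, but -1.37 for the Tlr9 knockout. The difference was -3.001 ± 0.27 (95% interval -3.61 to -2.39, adjusted p = 0.00513), and Mxd3 was the only member of 7 to pass, against 0.958% of all genes (0.843% for lower calls), while 2 of 7 had an unadjusted p under 0.05 (13.6% of all genes). Mxd4 changed by 0.85 in the Tlr9 knockout and by -0.33 to -0.22 elsewhere, a difference of 1.12 ± 0.33 that did not pass (adjusted p = 0.173) except without the double knockout arrays (1.12, adjusted p = 0.0186). In the same comparison the median difference was 1.68 over the 4 tested erythroid markers and 0.44 over the 7 B cell markers. The median level of all 5 erythroid markers in the Tlr9 knockout was -4.06 at 24 h and -2.78 at 42 h. The part of these markers in the Mxd3 result was not tested. The result for Mxd3 kept its size but not its call without WT (-2.95, adjusted p = 0.111), without the Tlr7 knockout (-2.98, adjusted p = 0.292) and with Agilent's processed signals (-3.83, adjusted p = 0.167). From 6 to 24 h no member of 7 passed in the double knockout (0% of all genes; 0 of 7 at an unadjusted p under 0.05, 9.83% of all genes) or in the Tlr9 knockout (0% of all genes; 2 of 7 at an unadjusted p under 0.05, 7.27% of all genes).

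The genes that the network acts on were followed through lists. Of 38 genes known to be activated by MYC 37 were tested (all but Ptma), and 31 rose and 2 fell at 6 h (22.9% and 23.8% of all genes did), with a median of 1.99 against -0.00232 for all genes. At 24 h 32 rose and 1 fell (22.7% and 25.9% of all genes), with a median of 1.97, and at 42 h 31 rose and 0 fell (17.3% and 20.6% of all genes), with a median of 1.35. Odc1, the enzyme that starts polyamine synthesis, rose by 4.01 ± 0.22 at 6 h (adjusted p = 9.32e-07) and stood 3.00 and 2.06 above 0 h at 24 and 42 h. Slc7a5, a carrier of large amino acids, rose by 3.63 ± 0.15 (adjusted p = 3.32e-07) and stood 2.70 and 2.22 above 0 h later. The 2 falls at 6 h were of cell cycle genes: E2f2, a transcription factor, fell by 3.56 (SE 0.52, adjusted p = 0.000352), and Ccne1, cyclin E1, fell by 1.20 (SE 0.29, adjusted p = 0.00763) and then rose to 2.22 ± 0.29 above 0 h at 24 h (adjusted p = 0.000215).

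The list of activated genes had its lowest level after 0 h in the double knockout at 24 h. Its median over all 38 genes was 2.03, 2.05, 1.76 and 1.93 at 6 h, 1.88, 1.83, 1.53 and 1.02 at 24 h and 1.16, 1.24, 1.24 and 1.11 at 42 h. The 4 genotypes lay together at 6 and 42 h, and at 24 h the double knockout was lowest, as it was for Myc (2.38 against 3.18 to 3.35). Odc1 stood at 1.68 on that array, against 3.01, 2.97 and 3.17. At 42 h Myc and the list differed. Myc then ran from 1.58 in WT to 3.00 in the double knockout, its highest array, whereas the list was lowest in the double knockout, at 1.11. No gene of the list passed the test in the double knockout against the others (median -0.40, and -0.00299 for all genes; 0% of all genes passed).

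**Figure D4:**
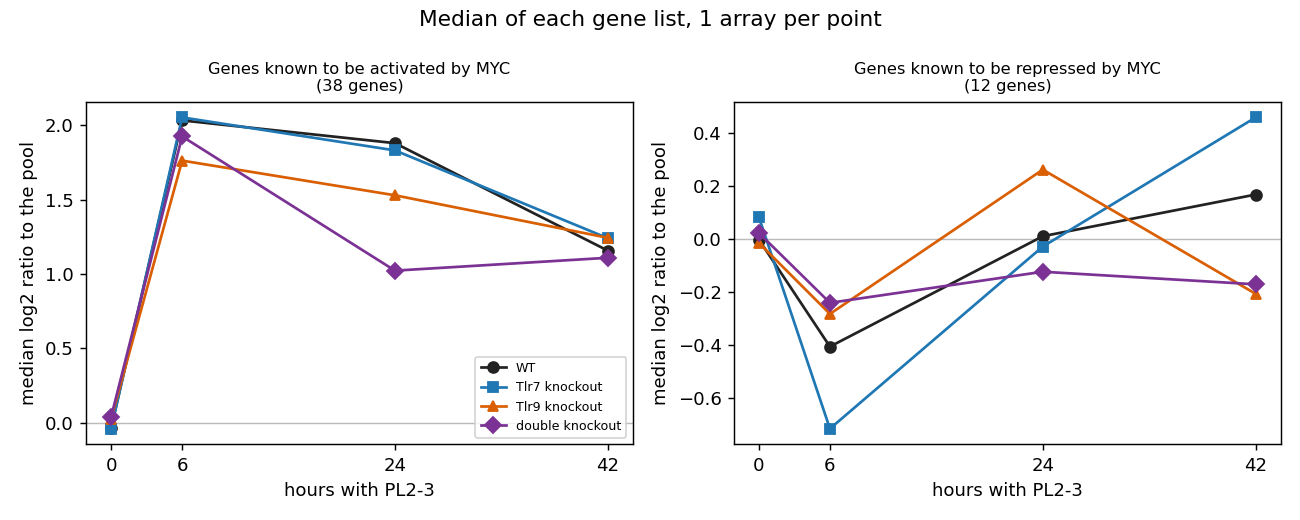
Median log2 ratio to the pool (vertical axes, scaled per panel) of genes known to be activated (38 genes) or repressed (12 genes) by MYC, 1 point per array. The activated genes stood between 1.76 and 2.05 at 6 h, and at 24 h the double knockout was at 1.02 and the others between 1.53 and 1.88.

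Genes known to be repressed by MYC were lower at 6 h on balance. Of 12 such genes 11 were tested (all but Ndrg2), and 7 fell and 2 rose (23.8% and 22.9% of all genes did), with a median of -0.69. Cdkn1b, the cell cycle inhibitor p27, fell by 2.23 (SE 0.17, adjusted p = 5.23e-06) and was still lower at 42 h (-0.91 ± 0.17, adjusted p = 0.0023). Ccng2, an atypical cyclin of resting cells, fell by 2.03 (SE 0.32, adjusted p = 0.000539). Gadd45b, a stress and NF-κB response gene, went the other way and rose by 2.71 ± 0.26 (adjusted p = 2.58e-05), as did Cdkn2b, another cell cycle inhibitor, by 0.68 ± 0.20 (adjusted p = 0.0172). At 24 h 5 fell and 2 rose (25.9% and 22.7% of all genes), and at 42 h 4 fell and 1 rose (20.6% and 17.3% of all genes). The list median was of mixed sign among genotypes at both times, from -0.12 to 0.26 at 24 h and from -0.21 to 0.46 at 42 h. Of the promoters of these lists, 5 of 32 activated and 2 of 10 repressed genes with a window held the E-box letters, against 8.09% of all 27025 genes.

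Of 22 cofactors and regulators of MYC or of the MXD repressors 9 rose and 4 fell at 6 h, 6 rose and 8 fell at 24 h, and 2 rose and 6 fell at 42 h. Of all genes 22.9% rose and 23.8% fell at 6 h, 22.7% and 25.9% at 24 h, and 17.3% and 20.6% at 42 h. The list median was 0.35, -0.11 and -0.05 at the 3 times, against -0.00232, 0.00656 and -0.00283 for all genes. At 6 h rises were thus more frequent in the list than among all genes. In either direction 46.7%, 48.6% and 37.8% of all genes changed, so the total counts by themselves do not set the list apart. Ruvbl1, an ATPase of chromatin complexes that MYC recruits, rose by 1.59 ± 0.10 at 6 h (adjusted p = 2.15e-06), and Pim1, a kinase that phosphorylates MYC, by 1.51 ± 0.36 (adjusted p = 0.00637). Bin1, an adaptor protein that binds and restrains MYC, fell by 2.95 (SE 0.21, adjusted p = 3.79e-06) and was still lower at 42 h (-1.49 ± 0.21, adjusted p = 0.000492). Mycbp2, a large ubiquitin ligase found as a MYC binder, fell by 1.05 (SE 0.15, adjusted p = 0.000328).

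Of 9 other relatives and partners of the network 6 were bright enough to test (not Mycl, Mxi1 and Zbtb17). At 6 h 1 rose and 2 fell, a share near the 46.7% of all genes that changed, with a median of -0.22. At 24 h 1 rose and 4 fell (22.7% and 25.9% of all genes), with a median of -0.87. At 42 h 1 rose and 3 fell (17.3% and 20.6% of all genes), with a median of -0.55. Tfap4, a transcription factor that MYC is known to induce in lymphocytes, rose by 2.01 ± 0.11 at 6 h (adjusted p = 9.38e-07) and stood 1.54 and 0.68 above 0 h at 24 and 42 h. Usf1, another factor that binds E-boxes, fell by 1.44 (SE 0.24, adjusted p = 0.00084), and Mlx, a MAX-like partner of sugar-sensing factors, by 0.61 (SE 0.14, adjusted p = 0.0056).

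Genes whose course over the 16 arrays was most like that of a member were sought among 17153 genes, by Pearson r of log2 ratios. The arrays share genotypes, times and the reference pool, so r is a description. Genes with a full gene symbol are named from among the 5 nearest per member. For Myc these were Pus1, a pseudouridine synthase of transfer RNA, Bend3 and Noc4l, a ribosome assembly gene (each r = 0.99). Mxd3 had Cdkn3 and Ccnb2, genes of dividing cells (both r = 0.98). Mxd1 had Spata6, Pakap, Ttll1 and Cisd3 (each r = 0.97), and Mxd4 had Msrb2 (r = 0.98), Trappc9, Gstk1 and Rac2 (each r = 0.97). Mnt had Zswim8 and Wnk1 (both r = 0.98), Prrc1 and Trio (both r = 0.97). Mga had Tdpoz8 and Nr1d2 (both r = 0.98), Dus3l and Vps4b (both r = 0.97). Max had no such close match: Ube4a reached 0.83, Ell3 and Mkln1 0.81, Tmem108 0.79 and Pdpk1 0.78.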

How the data were processed

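The 16 arrays had 2 colours. Per the file headers, Agilent Feature Extraction 10.1.1.1 read the scans, and probe positions are on mm9. The deposited intensity is each spot's mean foreground and median local background, uncorrected. That program's own processed signals are deposited beside it, with background subtracted and dyes balanced. The value table deposited by the authors holds log10 ratios of the processed signals (checked on the files: no difference over 0.00166 on the log2 scale). Its column medians ran from -0.145 (the Tlr9 knockout array at 0 h) to 0.022 (log10).

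The uncorrected values were then taken through limma 3.58.1 in R 4.3.3: normexp (offset 50), loess within arrays, log2 of Cy5 over Cy3. The offset shrinks ratios of dim spots. Outlier spots were set to missing, repeat spots averaged, and each gene taken by its brightest probe. A gene was tested if well above background in either colour on 3 arrays of the comparison and without missing values. Tests were 2-sided (lmFit, eBayes), with Benjamini-Hochberg adjustment over all genes and a threshold of 0.05. Responses used 12 arrays with genotype as a term, genotype comparisons 12 arrays with time as a term, and differences in response or step all 16. In those last fits the genotype set against the others was assumed to vary like them.

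Of the 15 comparisons 4 were added after values were seen. Named genes were all members, the 2 largest called rises and falls at 6 h of each list (again at later times), and the 5 genes of highest r per member (not all are reported here). The members and lists were chosen with earlier results of these data known. The scripts were tested on simulated data. The number of arrays limits the precision.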

Additional observations from a re-analysis of the deposited data

Results flagged for a closer look

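The change of Mxd3 from 24 to 42 h differed between the Tlr9 knockout and the other 3 genotypes, by -3.001 on the log2 scale. The Tlr9 knockout fell from 1.60 to 0.23, whereas WT went from 0.47 to 2.20, the Tlr7 knockout from 0.62 to 2.30 and the double knockout from 0.16 to 1.65, so every other genotype moved the opposite way. On these 8 arrays the spot was well above background in Cy5, with 440 and 108 intensity units at 24 and 42 h in the Tlr9 knockout and 191 and 726 in WT. The difference passed the test of the step in limma (adjusted p = 0.00513, 7.14e-05 to 0.292 over its alternatives). Over the 4 tested erythroid markers the median of the same difference was 1.68, and over the 7 B cell markers 0.44, and their part in the result was not tested. The comparison was added after the values were seen, and each value rests on 1 array.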

How the results depend on the processing

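Of 140 recomputed counts of members past the threshold, over 15 comparisons, 126 stayed within the bounds of 1.5 times, 10 were lower and 4 higher. In most of the 15 comparisons no member had passed to begin with, so many of the 126 were counts of 0 that stayed 0. The processed signals and the authors' series table hold nearly the same values but were counted as separate alternatives. Of 626 recomputed values of single members 542 kept direction and side of the threshold, 31 lost the call, 22 gained it and 31 turned in direction. The cause was not tested for any of these. For 24 h median centring left 2 members called in place of 4. For the step from 24 to 42 h, 0 were called in place of 1 with Agilent's processed signals, with the authors' series table and with all 4 genotypes, 3 with median centring, and 0 to 4 when a genotype was left out. For the same step in the Tlr9 knockout against the others, 0 in place of 1 were called with the processed signals and the series table, and 0 to 3 when a genotype was left out. In the double knockout it was 0 to 1 when a genotype was left out.

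Median centring turned Max at 6 h to 0.39, Mga and Mxd4 at 24 h to 0.16 and 0.50, the step from 24 to 42 h of Mnt, Mxd1 and Mxd4 to -0.29, -0.065 and -0.35, the Tlr9 knockout minus WT of Mnt and Myc to -0.19 and -0.29, and the 24 to 42 h step of Mxd4 in the double knockout minus the others to 0.18. Median centring also moved the median of all genes. Relative to that median Max was 0.16 at 6 h, and Mga and Mxd4 were -0.07 and 0.28 at 24 h. In the step from 24 to 42 h Mnt, Mxd1 and Mxd4 were -0.077, 0.15 and -0.14. In the Tlr9 knockout minus WT Mnt and Myc were 0.084 and -0.010, and Mxd4 in the double knockout step was -0.13. Mga, the step of Mxd1, Mnt in the Tlr9 knockout minus WT and that last value of Mxd4 thus kept their direction. With all 4 genotypes Max and Mxd4 at 24 h were -0.016 and 0.063. Mxd4 at 42 h turned to -0.068 with the processed signals, to -0.069 with the series table, to -0.21 with the mean of its probes and to -0.44 with its other probe. Myc in the double minus the Tlr7 knockout turned to 0.01 with the processed signals (0.0095) and the series table (0.0094). 

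Leaving out a genotype or time turned these values, given as the range over 3 such fits. Mxd4 ranged from -0.20 to 0.083 at 24 h, from -0.19 to 0.14 at 42 h and from -0.27 to 0.31 for 24 to 42 h. Mxd3 ranged from -0.21 to 1.34 for that step in the double knockout minus the others. Myc ranged from -0.28 to 0.91 for that step in the Tlr9 knockout minus the others, from -0.016 to 0.19 in the Tlr7 knockout minus WT, from -0.10 to 0.52 in the Tlr9 knockout minus WT, and in the double knockout from -0.63 to 0.35 against the Tlr7 knockout, from -0.55 to 0.083 against the Tlr9 knockout, from -0.61 to 0.33 against the other 3 and from -0.79 to 0.15 for the difference in response. Only Mxd1 and Mxd4 had another probe to try. The fits already held genotype or time as a term, and no fit by replicate number was run, since each genotype and time has 1 array and the labels number no replicates. Mycn, and Mxd3 at 6 h, are limited by signal close to background.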

Other observations

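Over the 16 arrays the members' own courses were compared in pairs, as a description of arrays that share times, genotypes and the reference pool. Myc and Mxd1 ran opposite to each other (Pearson r = -0.93), as did Mga and Mxd3 (r = -0.82), Mga and Mxd4 (r = -0.81), Mnt and Mxd4 (r = -0.72), Mnt and Mxd3 (r = -0.71) and Myc and Mxd4 (r = -0.66). Mnt and Mga ran together (r = 0.87), as did Mxd1 and Mxd4 (r = 0.80). These pairs were singled out after their values were seen.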
